A study of Homo sapiens with 6 samples.

Results

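The genes described here make cholesterol from acetyl-CoA, sense it, and move and store it. They are a set of 29, chosen for known function and with earlier results of these data known. The set holds 8 genes for the steps from acetyl-CoA to the prenyl pyrophosphates and 11 for squalene to cholesterol. It also holds 4 for sterol sensing, 5 for receptor turnover, transport and storage, and LPIN1. A named probe set was found for 25 of the 29, 1 each, among 21448 probe sets on the array. The other 4 (FDFT1, MYLIP, NPC2 and LPIN1) were not analysed here. Transcript levels were compared between HS578T cells stably transfected with pcDNA 3 carrying EP300 cDNA (EP300 cultures) and HS578T cells with pcDNA 3 alone (control cultures), with 3 independent cultures and 3 arrays in each group. HS578T cells derive from a human breast carcinoma and grow with a mesenchymal character. Both groups were pools of at least 200 clones kept under the selection drug G418, in low-glucose medium with 10% fetal calf serum, glutamine and insulin. Whether the cultures of a group came from 1 pool is not stated, and the p-values measure the spread between cultures only.

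Cholesterol is built in the endoplasmic reticulum, by way of mevalonate, isoprenoid pyrophosphates, squalene and lanosterol. When sterols are low, SCAP escorts the transcription factors called SREBPs to the Golgi, where they are cut and released to activate nearly every gene of this pathway. When sterols are high, INSIG proteins hold SCAP back. EP300 encodes p300, a lysine acetyltransferase and co-activator, and p300 is known to acetylate SREBPs, which links EP300 to the pathway. The comparison thus bears on whether transcripts of the sterol pathway differ between cells with and without the EP300 vector.

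The arrays were alike in scale, with medians from 4.456 to 4.497 (log2). Pairs of EP300 arrays correlated at 0.9784 to 0.9802 (Pearson, across probe sets), pairs of control arrays at 0.9786 to 0.9807, and pairs of unlike arrays at 0.977 to 0.9807. No named probe set carries EP300 itself, so its level was not analysed here and the labels were not checked by it. All 8 markers expected in this line (VIM, FN1, CDH2, CD44, SPARC, COL1A1, THY1 and ZEB1) lay above the upper quartile of probe set means. The VIM probe set read the same value, 18.597, on all 6 arrays. It was 1 of 19 probe sets that did not vary, and the reason was not tested. Of 7 markers expected to be low, 3 lay above the median level. These were the oestrogen receptor gene ESR1 (mean 4.79), GATA3 (4.76) and the keratin gene KRT8 (7.14). Of the 3, KRT8 also lay above the upper quartile. Markers of leukocytes, endothelium and hepatocytes (6 genes) had means of 3.00 to 4.67, with 1 above the median level of 4.434.

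None of the 25 sterol genes differed between the groups past the threshold, a limma p of 0.05 after Benjamini-Hochberg adjustment over all probe sets. The lowest adjusted p among them was 0.740. Across the whole array the same rule called 0 of 21448 probe sets (0%). At an unadjusted limma p below 0.05 there were 4 sterol genes (16%), against 6.52% of all probe sets. Lower in EP300 cultures were 3 of them, IDI1, HSD17B7 and SC5D (background 3.07%), and 1, TM7SF2, was higher (background 3.45%). Without EP300 replicate 1 the count was 2, and without EP300 replicate 3 it was also 2.

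The 3 EP300 values lay wholly on one side of the 3 control values for 5 sterol genes (20%), against 12.2% of all probe sets. These were the 4 just named and HMGCS1, with 4 lower (background 5.91%) and 1 higher (background 6.30%). For each of the 5 the exact two-sided permutation p over the 6 arrays was 0.1, the smallest that 3 against 3 can give. Groups that do not overlap always give that value, so it is no separate support. The shares of 16% and 20% rest on 4 and 5 genes, and no test of the set was made.

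As a group the 25 genes had a median log2 difference of -0.154 (EP300 minus control), against 0.000982 over all probe sets. A total of 18 had a difference below 0 and 7 above it, where 49.8% of all probe sets were below 0 and 50.2% above. That median depended on single control arrays. It was -0.0359 with 14 genes below 0 without control replicate 2, and -0.0701 with 16 below 0 without control replicate 3. The differences ran from -0.67 to 0.54, and the median size of a difference was 0.210, close to the 0.200 over all probe sets.

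**Figure D1:**
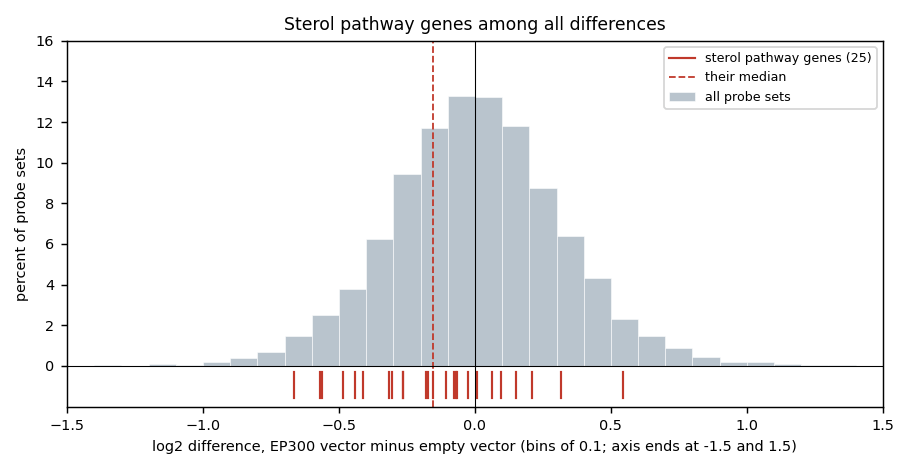
Distribution of the log2 difference (EP300 vector minus empty vector, x axis) over all probe sets, as the percent of probe sets per bin of 0.1 (grey bars), with a red mark below the axis for each of the 25 sterol genes and a dashed line at their median of -0.154. The marks lie between -0.67 and 0.54, and 18 of 25 are left of 0. IDI1, SC5D and HSD17B7 lie below the limit of the lowest 5% of all probe sets (-0.51), and TM7SF2 above that of the highest 5% (0.523).

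The 95% intervals show what these arrays could resolve. Their widths either side of the estimate ran from 0.453 to 1.01 on the log2 scale, with a median of 0.558. For 18 of the 25 genes the interval lay wholly within a 2-fold change in either direction. It reached a 2-fold decrease for the other 7, which were ACAT2, HMGCS1, IDI1, HSD17B7, SC5D, DHCR7 and SOAT1.

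**Figure D2:**
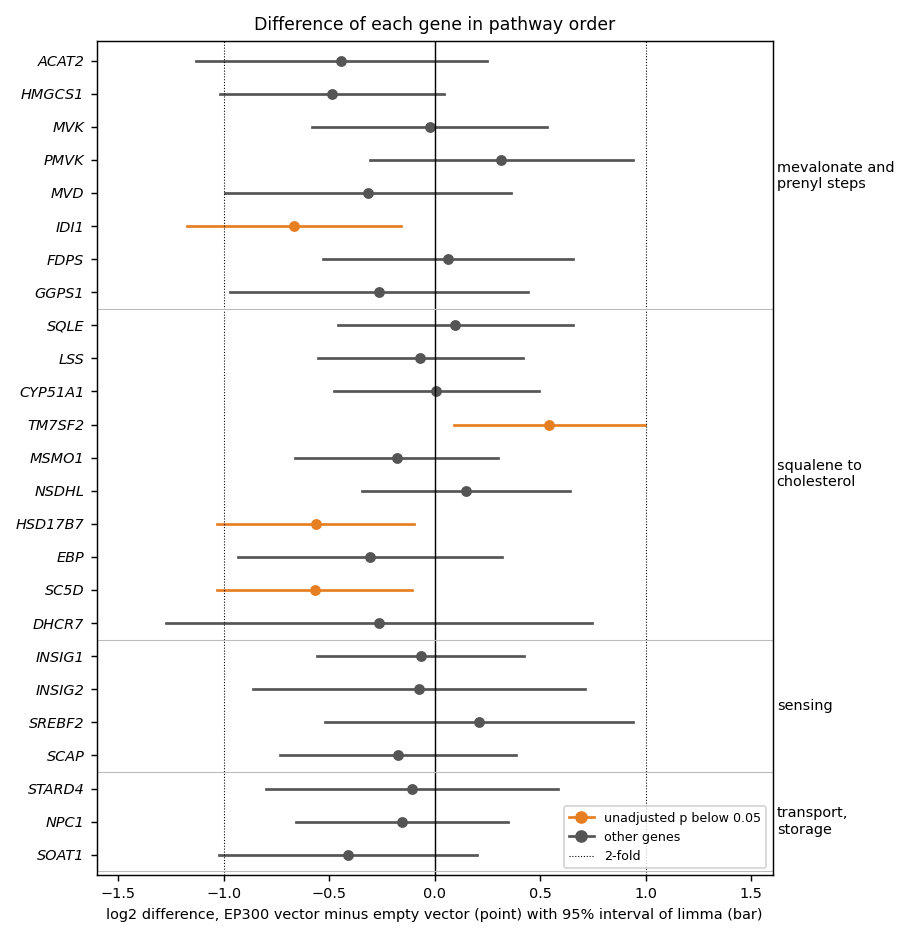
Log2 difference of each of the 25 genes (points, EP300 vector minus empty vector) with limma's 95% interval (bars), in pathway order from top to bottom, with dotted lines at a 2-fold change and orange for an unadjusted p below 0.05. The 4 orange genes are IDI1, TM7SF2, HSD17B7 and SC5D, and 3 of the 4 lie left of 0.

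The first block of the pathway turns acetyl-CoA into farnesyl and geranylgeranyl pyrophosphate, and all 8 of its genes were measured. A difference below 0 was seen for 6 and above 0 for 2, with a median of -0.290. HMGCS1 encodes the cytosolic synthase that makes HMG-CoA, the substrate of the rate-limiting reductase. Its probe set read 7.76, 7.996 and 7.55 (log2) in EP300 cultures, against 8.09, 8.07 and 8.60 in control cultures. The groups did not overlap, but the gap was narrow: EP300 replicate 2 lay just under control replicates 1 and 2, and control replicate 3 stood above the rest. The means were 7.77 ± 0.22 in EP300 cultures and 8.26 ± 0.30 in control cultures (SD, n = 3 each), a log2 difference of -0.49 ± 0.24 (SE) or 1.40-fold lower (limma adjusted p = 0.787). Without control replicate 3 the difference was -0.32.

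IDI1, the isomerase that interconverts the basic isoprenoid units, differed most among the 25. It read 10.09, 9.97 and 10.12 in EP300 cultures, against 10.93, 10.38 and 10.87 in control cultures. The EP300 cultures were tight and all lower, and control replicate 2 was the nearest to them. The difference was -0.67 ± 0.23 (SE), with a 95% interval from -1.17 to -0.16, or 1.59-fold lower (limma adjusted p = 0.740). Leaving out 1 array gave -0.84 to -0.56. RefSeq lists 3 pseudogenes named after IDI1, 0 of them as transcribed, and signal shared with them was not separated.

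For the other 6 genes of this block the groups overlapped. ACAT2, the thiolase that joins the first pair of acetyl units, differed by -0.44 ± 0.31 (SE). This rested largely on EP300 replicate 3, which read 6.29 against 7.02 to 7.64 in control cultures, and without it the difference was -0.12. The mevalonate kinase gene MVK differed by -0.02 ± 0.25, the phosphomevalonate kinase gene PMVK by 0.32 ± 0.28 and the decarboxylase gene MVD by -0.32 ± 0.30. PMVK and MVD lay below the median level of the array, where the background is unknown, and single arrays carried both differences: PMVK was at 0.06 without EP300 replicate 2, and MVD at -0.00449 without control replicate 3. FDPS, the farnesyl pyrophosphate synthase gene, differed by 0.06 ± 0.26, and RefSeq lists 10 pseudogenes named after it, 1 of them transcribed. GGPS1, which makes the geranylgeranyl unit used to anchor small GTPases, differed by -0.26 ± 0.31, and by 0.12 without control replicate 1.

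From squalene to cholesterol 10 of 11 genes were measured, all above the median level. They were split, with 6 differences below 0, 4 above, and a median of -0.124. Of the 4 genes at an unadjusted limma p below 0.05 the block held 3 (30% of its 10 genes, background 6.52%). That share rests on 3 genes, and these did not share a direction. Of them 2 were lower (background 3.07%) and 1 was higher (background 3.45%). TM7SF2 encodes a sterol reductase that acts after lanosterol demethylation, a step that the lamin B receptor also carries out. It read 4.95, 4.76 and 4.95 in EP300 cultures, against 4.23, 4.34 and 4.46 in control cultures. All EP300 values were higher. The difference was 0.54 ± 0.20 (SE), with a 95% interval from 0.09 to 1.00, or 1.46-fold higher (limma adjusted p = 0.748). The control values lay under or near the array medians, where the background is unknown. LBR, the lamin B receptor gene, read 6.66, 7.24 and 6.996 in EP300 cultures and 7.33, 7.21 and 6.48 in control cultures, so that these groups overlapped (log2 difference -0.04).

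HSD17B7 encodes a reductase of the demethylation complex that trims lanosterol, and the same enzyme can make oestradiol from oestrone. Its probe set read 4.74, 4.95 and 4.84 in EP300 cultures, against 5.35, 5.61 and 5.26 in control cultures. The EP300 values were all lower, and lay not far above the array medians (4.456 to 4.497), where the background is unknown. The difference was -0.56 ± 0.21 (SE), with a 95% interval from -1.03 to -0.10, or 1.48-fold lower (limma adjusted p = 0.746). RefSeq lists 2 pseudogenes named after HSD17B7, 1 of them transcribed, and this probe set was not separated from them. SC5D encodes the desaturase that acts before the last reduction. It read 9.15, 9.06 and 8.94 in EP300 cultures, against 9.47, 9.61 and 9.78 in control cultures. Again every EP300 value was lower. The difference was -0.57 ± 0.21 (SE), with a 95% interval from -1.03 to -0.11, or 1.48-fold lower (limma adjusted p = 0.746). With 1 array left out it lay between -0.65 and -0.49.

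SQLE, the squalene epoxidase gene and a control point of the pathway, read 8.46, 8.55 and 9.19 in EP300 cultures, against 8.57, 8.55 and 8.80 in control cultures. The groups overlapped, and EP300 replicate 3 alone stood high. The difference was 0.10 ± 0.25 (SE), and -0.13 without that array. CYP51A1, the lanosterol demethylase gene, read 9.80, 9.46 and 9.93 in EP300 cultures, against 9.59, 9.79 and 9.79 in control cultures. No direction is given for it, since its difference of 0.01 ± 0.22 became -0.05 after quantile normalization. RefSeq names 3 pseudogenes after CYP51A1, 0 of them as transcribed, and signal shared with them was not separated. MSMO1, the methylsterol oxidase gene, read 13.24, 13.33 and 13.56 in EP300 cultures, against 13.42, 13.48 and 13.78 in control cultures. These groups overlapped as well (-0.18 ± 0.22 SE), and without control replicate 3 the difference was -0.07.

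DHCR7, the reductase gene of the final step to cholesterol, had the widest spread of the 25 genes. It read 8.09, 8.31 and 7.68 in EP300 cultures, against 7.09, 9.01 and 8.76 in control cultures. The control cultures lay on both sides of all EP300 cultures, with replicate 1 far below the other two. The difference of -0.26 ± 0.45 (SE) was -0.86 without control replicate 1 and 0.10 without control replicate 2. For the other 3 genes of the block the groups overlapped. LSS, the lanosterol synthase gene, differed by -0.07, the dehydrogenase gene NSDHL by 0.15 and the isomerase gene EBP by -0.31. The EBP value rested on control replicate 2, and was -0.0359 without it.

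**Figure D3:**
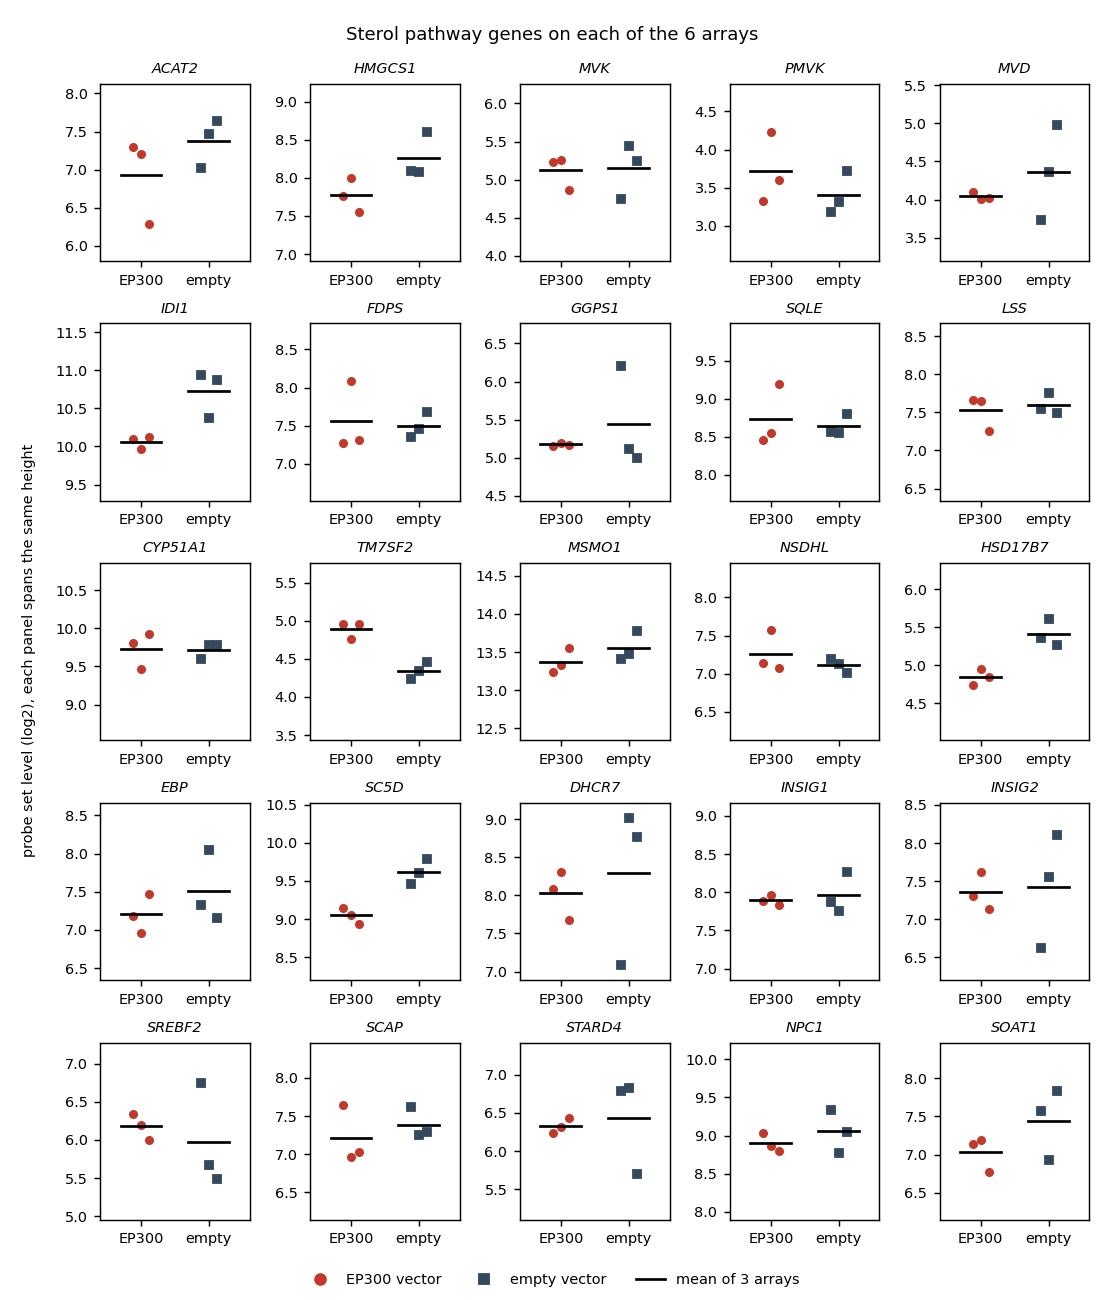
Log2 probe set level (y axis, the same height of scale in every panel) of the 25 sterol genes on each array, with EP300 cultures as red circles on the left, control cultures as blue squares on the right and a line at each group's mean. The groups stand apart for HMGCS1, IDI1, TM7SF2, HSD17B7 and SC5D, and control cultures of DHCR7 run from 7.09 to 9.01.

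The sensing genes did not stand apart in any case. SREBF2 encodes the SREBP that drives cholesterol synthesis, and its own gene is among the targets of the pathway. It read 6.34, 6.20 and 5.997 in EP300 cultures, against 6.75, 5.68 and 5.48 in control cultures. Control replicate 1 was above and the other control cultures below all EP300 cultures. The difference was 0.21 ± 0.33 (SE), and -0.03 without control replicate 3. INSIG1, the retention factor whose transcript is itself a sensitive SREBP target, read 7.89, 7.96 and 7.84 in EP300 cultures, against 7.87, 7.75 and 8.27 in control cultures (-0.07 ± 0.22 SE). The 95% interval of INSIG1, from -0.56 to 0.42, lay within a 2-fold change. Its relative INSIG2 differed by -0.08 ± 0.35, with control cultures between 6.63 and 8.11. SCAP, the escort protein gene, read 7.64, 6.96 and 7.03 in EP300 cultures, against 7.62, 7.25 and 7.29 in control cultures, and differed by -0.17 ± 0.25 (SE). Its difference was -0.39 without EP300 replicate 1 and -0.05 without EP300 replicate 2.

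Of the transport and storage genes 3 of 5 were measured, with differences of -0.11 to -0.41 and overlapping groups. STARD4 encodes a carrier that moves sterol between membranes. It read 6.23, 6.32 and 6.43 in EP300 cultures, against 6.78, 6.83 and 5.70 in control cultures. The 3 EP300 values were tight and lay between the control values, and the difference of -0.11 ± 0.31 (SE) was -0.48 without control replicate 3. NPC1, which exports cholesterol from lysosomes, read 9.03, 8.86 and 8.80 in EP300 cultures, against 9.34, 8.78 and 9.04 in control cultures (-0.15 ± 0.22 SE). That difference was -0.0115 without control replicate 1 and -0.29 without control replicate 2. SOAT1, which esterifies cholesterol for storage, read 7.14, 7.19 and 6.77 in EP300 cultures, against 7.57, 6.92 and 7.84 in control cultures. Its control replicate 2 lay among the EP300 values, and the difference was -0.41 ± 0.27 (SE), or -0.67 without that array and -0.21 without control replicate 3.

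Spread within a group was as marked as the difference between groups. For 21 of 25 genes the wider of the 2 within-group ranges exceeded the difference of the means. Over the whole array this held for 20137 of the 21448 probe sets, which is a larger share. The median range over 3 cultures was 0.401 in EP300 cultures and 0.538 in control cultures for the sterol genes, and 0.542 and 0.531 over all probe sets. By array, 8, 11 and 7 of the 25 genes lay above their own 6-array mean in EP300 replicates 1, 2 and 3. In control replicates 1, 2 and 3 the counts were 11, 13 and 17. Control replicate 3 held the highest value of 8 genes, and its median deviation from the genes' own means was 0.135, against -0.00366 over all probe sets on that array.

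**Figure D4:**
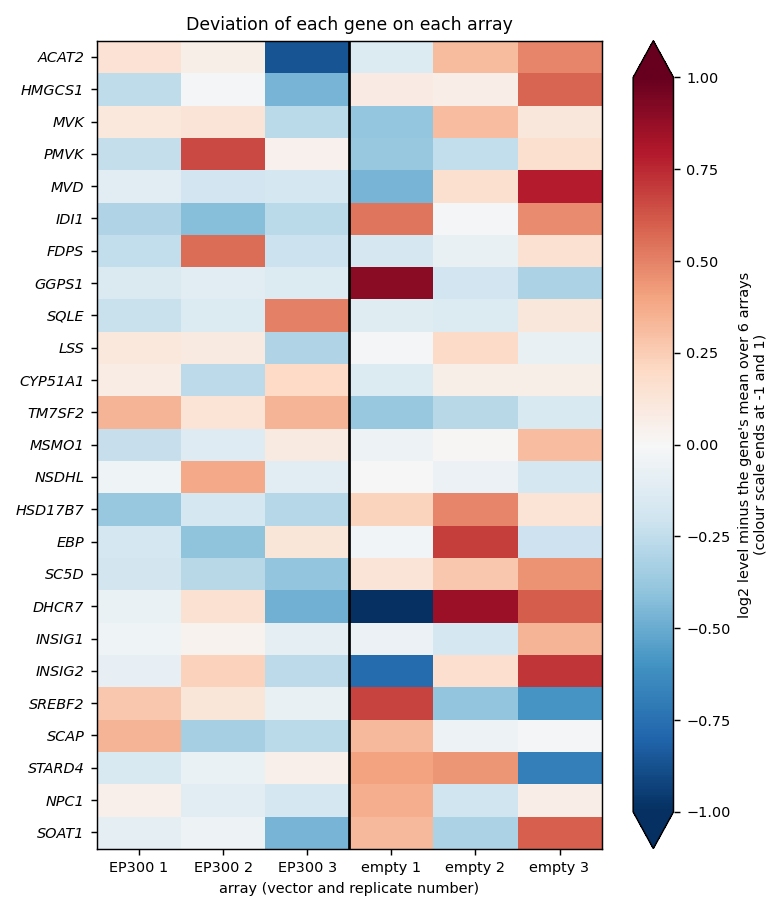
Deviation of each sterol gene (rows, pathway order) from its own mean over the 6 arrays (colour, log2, red above and blue below), with EP300 arrays left of the line and control arrays right of it. Control replicate 3 holds 17 of 25 genes above their mean and EP300 replicate 3 holds 7, while control replicate 1 is mixed, with DHCR7 low and GGPS1 high.

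Promoter sequence was searched for motifs that these genes may share. RefSeq windows (GRCh38.p14) of 300 bases, from 250 before to 50 after the start, were found for 26 of the 29 genes. Of these 26 genes 23 were measured on the array. The first window listed for a gene was used. Shown are the 5 genes whose groups did not overlap and SREBF2, the only 1 of the 26 with the sterol regulatory element searched. Capitals mark the motifs searched on both strands: that element (TCACNCCAC), the NF-Y box (CCAAT), the SP1 box (GGGCGG) and the E-box (CACGTG). No match overlapped a match of another motif in the windows shown.
HMGCS1, chr5:43313363-43313662, minus strand: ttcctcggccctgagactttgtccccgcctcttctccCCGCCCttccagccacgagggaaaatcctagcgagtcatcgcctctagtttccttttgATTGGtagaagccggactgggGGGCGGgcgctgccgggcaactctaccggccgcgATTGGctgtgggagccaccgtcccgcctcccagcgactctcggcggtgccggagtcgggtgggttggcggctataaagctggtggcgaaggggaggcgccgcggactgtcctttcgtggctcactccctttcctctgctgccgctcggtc
IDI1, chr10:1056655-1056954, minus strand: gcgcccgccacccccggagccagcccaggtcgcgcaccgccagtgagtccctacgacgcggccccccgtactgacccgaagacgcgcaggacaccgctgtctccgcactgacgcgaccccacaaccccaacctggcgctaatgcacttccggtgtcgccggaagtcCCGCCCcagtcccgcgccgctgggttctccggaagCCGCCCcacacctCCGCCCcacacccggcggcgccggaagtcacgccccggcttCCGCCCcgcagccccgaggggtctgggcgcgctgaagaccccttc
TM7SF2, chr11:65111622-65111921, plus strand: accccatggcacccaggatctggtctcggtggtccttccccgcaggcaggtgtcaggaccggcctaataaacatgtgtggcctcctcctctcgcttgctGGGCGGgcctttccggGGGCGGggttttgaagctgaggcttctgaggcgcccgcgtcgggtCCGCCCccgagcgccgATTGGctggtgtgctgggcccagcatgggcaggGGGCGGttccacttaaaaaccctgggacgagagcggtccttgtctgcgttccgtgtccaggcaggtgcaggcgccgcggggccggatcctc
HSD17B7, chr1:162790452-162790751, plus strand: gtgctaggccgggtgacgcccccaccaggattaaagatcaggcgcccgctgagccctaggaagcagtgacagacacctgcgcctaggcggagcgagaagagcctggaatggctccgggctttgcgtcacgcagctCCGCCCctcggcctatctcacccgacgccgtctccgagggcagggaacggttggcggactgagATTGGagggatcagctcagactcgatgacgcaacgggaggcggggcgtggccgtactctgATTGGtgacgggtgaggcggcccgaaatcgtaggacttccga
SC5D, chr11:121292521-121292820, plus strand: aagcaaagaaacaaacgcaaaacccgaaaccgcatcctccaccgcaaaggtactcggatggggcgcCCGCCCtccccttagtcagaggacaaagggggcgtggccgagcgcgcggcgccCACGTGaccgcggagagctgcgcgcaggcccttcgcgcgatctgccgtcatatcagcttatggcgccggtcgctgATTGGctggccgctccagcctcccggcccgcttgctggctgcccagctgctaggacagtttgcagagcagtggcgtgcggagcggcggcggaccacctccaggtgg
SREBF2, chr22:41832855-41833154, plus strand: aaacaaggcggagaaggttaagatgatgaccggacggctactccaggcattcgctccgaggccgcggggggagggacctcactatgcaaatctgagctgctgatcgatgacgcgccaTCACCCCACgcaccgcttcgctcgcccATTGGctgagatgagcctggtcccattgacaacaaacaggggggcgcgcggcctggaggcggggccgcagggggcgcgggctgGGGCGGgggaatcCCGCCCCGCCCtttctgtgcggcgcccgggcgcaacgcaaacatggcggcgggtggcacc

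SREBPs bind sterol regulatory elements weakly alone and are known to work with NF-Y and SP1 at nearby sites. In the SREBF2 window the element lay at positions -133 to -125 with the start base as 0, and an NF-Y box in reverse followed at -106 to -102. An NF-Y box was found in 18 of the 26 windows (69.2%), against 35.7% of the first windows of all 27305 genes and 36.4% of those of genes on the array. An SP1 box was found in 24 (92.3%), against 44.6% of all and 59.5% of array genes, and an E-box in 4 (15.4%), against 7.43% and 8.69%. The sterol element as spelled here was in 1 (3.85%), against 1.15% of all. The HMGCS1 window shown holds 2 NF-Y boxes and 2 SP1 boxes, but only 1 of its 2 listed windows has an NF-Y box. The HSD17B7 window holds 2 NF-Y boxes and 1 SP1 box. TM7SF2, which was higher in EP300 cultures, holds 1 NF-Y box and 4 SP1 boxes, and SC5D, which was lower, holds 1 of each and an E-box. For IDI1 the window shown has no NF-Y box, while 2 of its 3 listed windows have one. These matches are letters in a window and show no binding, and base composition was not matched between the sets.

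Genes around this core were read from a further list of sterol genes, of which 37 of 44 were measured. None passed the adjusted threshold, and 4 had an unadjusted limma p below 0.05 (10.8%, background 6.52%), 2 lower and 2 higher. RNF145, a membrane ubiquitin ligase that acts on SCAP in mouse liver, read 7.81, 7.28 and 7.33 in EP300 cultures, against 8.45, 8.42 and 8.99 in control cultures. The groups were well apart, by -1.15 ± 0.25 (SE) or 2.22-fold lower, with a 95% interval from -1.71 to -0.58 (limma adjusted p = 0.649). SEC24A, a coat subunit of the vesicles that carry SCAP and SREBPs to the Golgi, read 10.50, 10.60 and 9.95 in EP300 cultures, against 11.08, 10.93 and 11.01 in control cultures. All EP300 values were lower (-0.65 ± 0.23 SE, limma adjusted p = 0.746).

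RNF139, another ubiquitin ligase of the endoplasmic reticulum tied to sterol control, read 8.36, 8.28 and 7.96 in EP300 cultures, against 7.59, 7.60 and 7.71 in control cultures. Every EP300 value was higher (0.57 ± 0.21 SE, limma adjusted p = 0.746). PAQR3, a Golgi protein that anchors SCAP and SREBPs, read 6.37, 6.04 and 6.81 in EP300 cultures, against 5.24, 5.35 and 6.29 in control cultures. Here control replicate 3 lay among the EP300 values (0.78 ± 0.32 SE, limma adjusted p = 0.753). SREBF1, which encodes the other SREBP gene products, differed by -0.05 and its groups overlapped. Over the 37 genes the median difference was -0.0677, with 23 below 0. The count of 4 was 2 without EP300 replicate 3, with 1 lower and 1 higher, and 2 without control replicate 1 or control replicate 2, with 2 lower and 0 higher each. Without EP300 replicate 1 it was again 4, but with 4 lower and 0 higher.

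Mevalonate products also feed protein prenylation, dolichol and ubiquinone. Of 17 genes of these branches 13 were measured, with a median difference of 0.0299, 5 below 0 and 8 above. PDSS1, a subunit of the enzyme that makes the ubiquinone side chain, was the only 1 at an unadjusted p below 0.05 (7.69%, background 6.52%). It read 5.47, 5.44 and 5.92 in EP300 cultures, against 4.41, 5.19 and 4.83 in control cultures. The EP300 values were all higher (0.80 ± 0.26 SE, limma adjusted p = 0.738). Without EP300 replicate 3 or control replicate 1 the count was 0, and without control replicate 3 it was 2.

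In the fatty acid arm, which SREBPs also drive, 11 of 12 genes were measured and 2 had an unadjusted limma p below 0.05 (18.2%, background 6.52%), a share that rests on those 2 genes. SCD, the stearoyl-CoA desaturase gene, was lower at 12.57, 12.53 and 12.17 in EP300 cultures, against 13.55, 13.55 and 13.57 in control cultures (-1.13 ± 0.21 SE, limma adjusted p = 0.476). With a variance trend and robust prior it passed the threshold (limma adjusted p = 0.0435), and over all alternatives its adjusted p reached 0.866. ME1, the cytosolic malic enzyme gene, was higher at 9.70, 9.82 and 9.82, against 8.86, 8.87 and 9.36 in control cultures (0.75 ± 0.22 SE, limma adjusted p = 0.735). The FASN difference was 0.12 and the ACLY difference 0.14, and both sets of groups overlapped. Each comparison here uses the same 6 arrays, so these lists are not independent of the sterol genes.

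**Figure D5:**
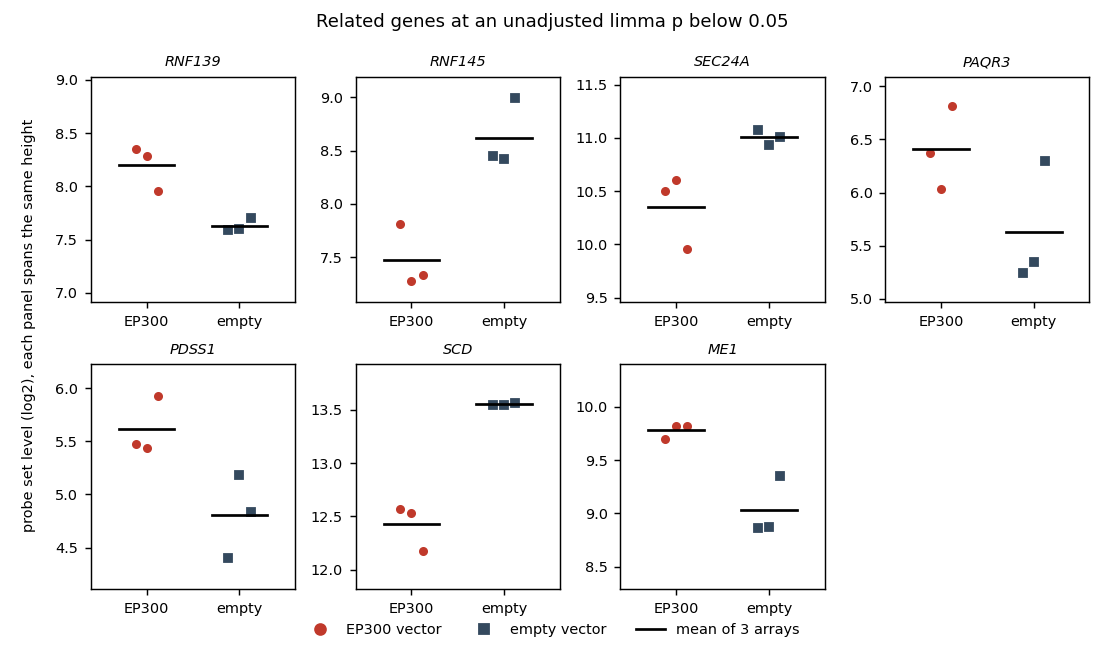
Log2 probe set level (y axis, the same height of scale in every panel) on each array of the 7 related genes at an unadjusted limma p below 0.05, with EP300 cultures as red circles on the left, control cultures as blue squares on the right and a line at each group's mean. The groups are apart for 6 of the 7, and PAQR3 overlaps through control replicate 3. These 7 were picked by that p on the same 6 arrays, so groups that stand apart are no separate support. In the full lists groups were apart for 5 of 37 other sterol genes, 1 of 13 isoprenoid genes and 4 of 11 fatty acid genes. The share over all probe sets was 12.2%.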

How the data were processed

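Transcript levels were measured on Affymetrix whole-transcript arrays from total RNA of 6 cultures, 1 array each. The authors made the deposited log2 values, 1 per probe set and array, with Partek 6.6, per the submitters' processing notes. The log2 scale was inferred from their range (1.787 to 19.93). How background was corrected and arrays were normalized, and the genome build, are not stated in the labels. Detection calls were not used here, so the background of dim probe sets is unknown, and the number of arrays limits the precision.

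EP300 arrays minus control arrays were fitted with limma 3.58.1 in R 4.3.3 on all 21448 probe sets, with no filter, covariate or block, and Benjamini-Hochberg adjustment over all of them at 0.05. Of these probe sets 17709 had 1 gene symbol in the platform annotation and 3739 had none listed. Where several probe sets name a gene the one with the highest mean stands for it, but 0 of the sterol genes had more than 1. Group errors are SD over 3 cultures, and differences carry moderated SE or 95% intervals. The fit was tested on simulated data. Promoter windows were read from RefSeq (GRCh38.p14).

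The genes and lists were chosen with earlier results of these data known. Values per array are given for genes at an unadjusted p below 0.05, with groups that do not overlap, or among 13 fixed key genes, and of each related list for up to 6 genes at an unadjusted p below 0.05. LBR was added after its values were seen. Alternatives were quantile normalization, median centring, 1 probe set per gene, a filter on level, a robust prior with a variance trend, a replicate block and leaving out each array.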

Additional observations from a re-analysis of the deposited data

How the results depend on the processing

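Under all 12 alternatives 0 of the sterol genes passed the adjusted threshold, with a lowest adjusted p of 0.581 to 0.866. With a variance trend and robust prior 4 probe sets passed on the whole array, none of the 25 sterol genes among them but SCD of the fatty acid arm included (adjusted p = 0.0435), against 0 in every other setting. The count of sterol genes at an unadjusted p below 0.05 was 4 under each setting on all 6 arrays and 2 to 5 with 1 array left out. Their median difference lay between -0.167 and -0.150 on all 6 arrays and between -0.159 and -0.0359 with 1 left out. The count of other sterol genes at that p was 4 or 5 on all arrays and 2 to 5 with 1 left out, and that of isoprenoid genes 0 to 2. The alternatives for the isoprenoid and fatty acid lists and for overlap were chosen after seeing the data. Of the 25 sterol genes 13 kept the sign of their difference in every setting, IDI1, TM7SF2, HSD17B7, SC5D and HMGCS1 among them. The other 12 changed sign in some setting. With 1 array left out their log2 differences ran over these ranges: MVK -0.224 to 0.125, FDPS -0.2 to 0.202, GGPS1 -0.486 to 0.121, SQLE -0.131 to 0.234, LSS -0.138 to 0.0629, CYP51A1 -0.0899 to 0.142. For the rest they were NSDHL -0.00413 to 0.242, DHCR7 -0.862 to 0.0997, INSIG1 -0.171 to 0.0856, INSIG2 -0.479 to 0.262, SREBF2 -0.0338 to 0.599, STARD4 -0.476 to 0.0872. CYP51A1 also changed sign with quantile normalization (-0.0455). The cause was not tested. Replicate numbers are shared between the groups, but same-numbered arrays did not deviate together (correlations of -0.00153, -0.00528 and -0.00893). These correlations cover all probe sets of processed values, so a pairing that touched few genes would not show in them. With the replicate block the count of sterol genes at an unadjusted p below 0.05 stayed at 4 and their lowest adjusted p was 0.806. Averaging all probe sets of a gene was not run, since each of these genes had 1. Signal over background is not known here, which limits PMVK, MVD, TM7SF2 and HSD17B7 most.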
